A study of Arabidopsis thaliana with 27 samples.

Results

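The comparison described here set *Arabidopsis thaliana* Col-0 leaves that were wounded and treated with oral secretions (OS) of *Spodoptera littoralis* (Sl OS) against leaves that were wounded and treated with water (W), both 3 h after treatment. It covered all 18899 genes of the normalized table. The Sl OS libraries labelled for 3 h (n = 4) and the W libraries labelled for 3 h (n = 3) were taken by their column names, which gives 7 of the 27 libraries of the series. All plants were wild type, 5 weeks old and grown in short days. In both groups 3 leaves per plant received 4 holes of 1 mm beside the midvein and 2 µl of liquid on each hole, and discs of 1 cm around the wounds were collected. The groups therefore shared the wound and the volume, and differed in the liquid. The secretion came from late-instar larvae that had fed on Arabidopsis and was stored frozen, so its effect was measured on punched holes and not during feeding. The study described 4 independent biological replicates and left out 1 W sample as an outlier. Beside this comparison, the report uses unwounded control leaves collected at 3 h, leaves with OS of *Pieris brassicae* (Pb OS) at 3 h, and W and Sl OS leaves at 24 h, each with n = 4.

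When a caterpillar chews a leaf, the wound triggers the synthesis of jasmonate (JA), the hormone that removes JAZ repressor proteins from MYC transcription factors and so switches on defence genes. Saliva and regurgitant reach the wound during feeding and carry molecules that plants can sense or that act on plant signalling. In Arabidopsis the best known chemical defences against chewing insects are glucosinolates (GS), sulfur-rich compounds made from methionine (aliphatic GS) or from tryptophan (indole GS).

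The 7 libraries held from 28.24 to 30.12 M reads on genes, M being 1e6. A level below is given in CPM, the count of a gene per 1e6 reads, as deposited, after the authors' batch correction, and 1 read was worth 0.0289 to 0.0362 CPM. Differences are log2 values of Sl OS minus W with their standard error (SE), fitted with limma, and a gene is called higher or lower at a Benjamini-Hochberg adjusted p under 0.05 over all genes. Libraries of replicates 1 and 2 stood apart from those of replicates 3 and 4 in genes of the circadian clock. ELF4, an evening clock gene, was at 189 CPM in W replicate 1 and at 286 and 358 CPM in Sl OS replicates 1 and 2, against 3.87 to 11.1 CPM in the other 4 libraries. CCA1, a morning gene, was at 1.99 to 3.96 CPM in the former 3 libraries and at 25.6 to 37.0 CPM in the latter 4. The groups of the comparison overlapped in both genes, and of 10 clock genes only PRR7 was called, with a difference of -0.59. The study described plants of replicates 1 and 2, and those of replicates 3 and 4, as sharing time in the growth room. Differences within each batch are given below for some genes and lists only. Their absence elsewhere does not mean that a call held within each batch. The library labelled W replicate 2 stood with replicates 3 and 4, so the batch of replicates 1 and 2 was taken as W replicate 1 only, against 2 Sl OS libraries, and the other batch as W replicates 2 and 3 against the other 2.

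Sl OS raised 2627 genes above the W level and lowered 3423 genes below it, which are 13.9% and 18.1% of all genes tested. The remaining 12849 genes were not called, and the median difference of all genes was 0.003. Among genes called, the median difference was 0.94 for those higher and -1.09 for those lower, with a median SE of 0.25. Large differences were more often increases, with 202 genes higher and 94 lower by more than 3 on the log2 scale, whereas 1234 were higher and 1968 lower by more than 1. The 4 Sl OS values lay wholly above the 3 W values in 21.0% of all genes and wholly below them in 22.3%. Of the called genes, 2495 of those higher and 3218 of those lower had groups that did not overlap.

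**Figure D1:**
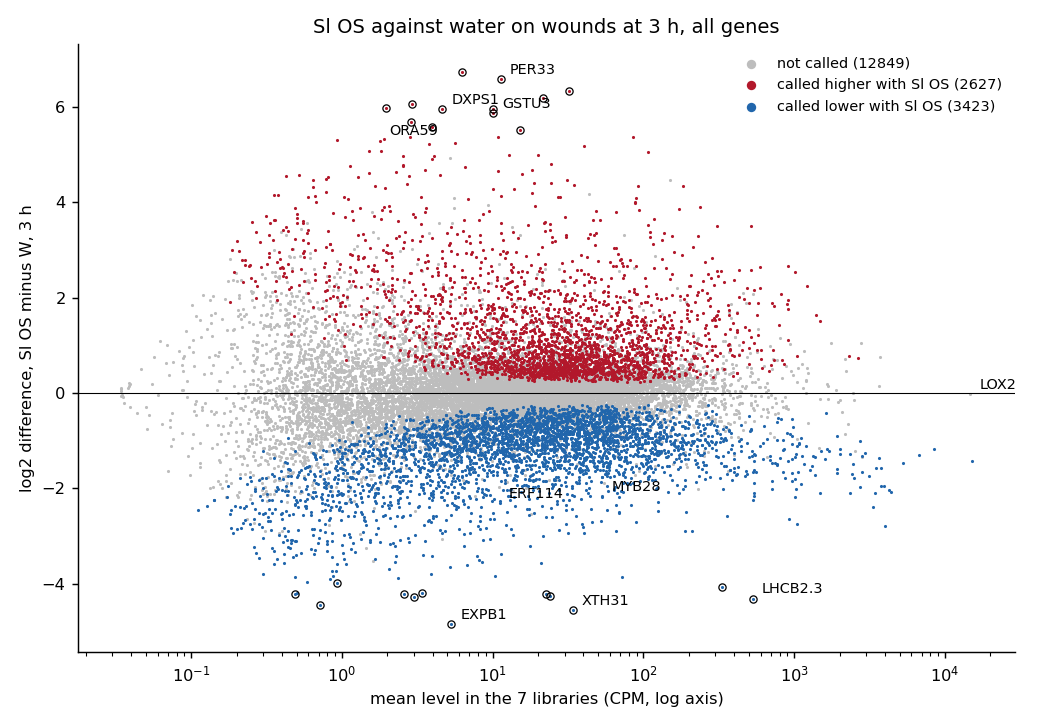
Difference between Sl OS and W at 3 h (log2, vertical axis) against the mean level of each gene in the 7 libraries (CPM, logarithmic horizontal axis), with 1 point per gene. Red points are the 2627 genes called higher, blue points the 3423 called lower and grey points the 12849 not called, and circles mark the 24 leading genes, whose differences lie above 5 or near -4 and below.

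The size of the response varied among the Sl OS libraries. Measured from the mean of the W libraries, the median of the genes called higher was 0.74, 1.21, 0.89 and 0.86 in Sl OS replicates 1 to 4, and that of the genes called lower was -0.84, -1.49, -1.06 and -0.83. Replicate 2 was the most extreme of the 4 in 71.8% of the genes higher and in 72.0% of those lower. Without Sl OS replicate 2, limma called 1751 genes higher and 2467 lower. Over the fits that each left out 1 library the calls numbered 1751 to 2543 higher and 2467 to 3385 lower. Without W replicates 1, 2 or 3 the genes higher numbered 1821, 1958 and 1810, and losses within a list are to be read beside these. A call described below as lost without a library is one that missed the threshold in that fit. Of the genes called, 2626 of 2627 higher and 3421 of 3423 lower had the same sign in both batches. The batches split the libraries that made these calls, which favours an equal sign, so these counts do not show replication. Taken alone, replicates 3 and 4 gave 2081 genes higher and 2758 lower, on 2 libraries in each group, with W replicates 2 and 3 placed there by the batch balance of the deposited values. Replicates 1 and 2 gave 2123 higher and 2967 lower, but there W is 1 library, which the fit assumes to vary like the other groups. The test of a difference between the batches also rests on that 1 W library, so its lack of calls does not show that the batches agree.

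The strongest increases were found in genes that stood at a few reads in W. AT1G76470 was counted at 4, 1 and 1 reads in the W libraries and at 161, 736, 364 and 351 reads with Sl OS. PER33, a class III peroxidase that acts in the cell wall, was at 0.0407, 0.399 and 0.487 CPM in W and at 32.9, 19.5, 14.1 and 23.1 CPM with Sl OS. AT1G09500 was at 0.389, 1.15 and 0.262 CPM in W and at 21.0, 175, 36.6 and 21.3 CPM with Sl OS. In all of these the lowest Sl OS library exceeded the highest W library by far, and unwounded control leaves were at 0.0339 to 0.112, 0.0875 to 0.499 and 0.131 to 0.628 CPM. The fitted differences were 6.74 (SE 0.69, adjusted p = 1.5e-05), 6.59 (SE 0.79, adjusted p = 3.2e-05) and 6.33 (SE 0.72, adjusted p = 2.8e-05). At such low W levels the fitted value depends on the prior count of the deposited values, so the reads are the firmer description. PER33 shares most of its sequence with PER34, whose level in W was 195 to 354 CPM, and reads of the pair may not be fully told apart.

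The other leading increases were in genes of varied roles. NPF7.2, a nitrate transporter, was at 0.367, 0.184 and 0.219 CPM in W and at 16.3, 41.3, 12.1 and 10.2 CPM with Sl OS. MSRB7, a methionine sulfoxide reductase that repairs oxidised proteins, was at 0.0565, 2.06 and 0.746 CPM in W and at 12.1, 110, 26.7 and 21.4 CPM with Sl OS. FAR5, a fatty acyl reductase that makes alcohols found in suberin and wax, was at 0, 0 and 5 reads in W and at 64, 102, 195 and 175 reads with Sl OS. In MSRB7 replicate 2 was far above the next library, while FAR5 lay between 3.02 and 4.72 CPM in the Sl OS libraries. UGT76E3, DXPS1, GSTU3, AT3G02480, AT1G80160 (GLYI7, a glyoxalase) and CXE6 completed the 12, with differences of 5.52 to 6.06. The groups overlapped in none of the 12, which the rule for choosing them required. All 12 kept their call without each library in turn, while UGT76E3 and DXPS1 were not called by voom on recovered reads.

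Among the strongest decreases were a few genes of known role. EXPB1, a beta-expansin that loosens cell walls, was at 4.48, 8.37 and 17.9 CPM in W and at 0.192, 0.376, 0.6 and 0.211 CPM with Sl OS. XTH31, an enzyme of the family that cuts and rejoins xyloglucan, was at 44.8, 38.6 and 107 CPM in W and at 2.57, 0.506, 2.92 and 12.4 CPM with Sl OS. LHCB2.3, a light harvesting protein of photosystem II, was at 586, 755 and 1580 CPM in W and at 30.9, 9.03, 81.8 and 219 CPM with Sl OS. Every Sl OS library lay below every W library, which the rule for choosing these genes required. Sl OS replicate 4 was the nearest to W in XTH31 and LHCB2.3. The fitted differences were -4.85 for EXPB1 (SE 0.81, adjusted p = 0.00031), -4.56 for XTH31 (SE 0.95, adjusted p = 0.0016) and -4.32 for LHCB2.3 (SE 1.06, adjusted p = 0.0047). KIN14D, a spindle kinesin also named ATK5, was counted at 38, 23 and 50 reads in W and at 0, 1, 0 and 5 reads with Sl OS. AT1G73600 was at 358, 749 and 753 CPM in W and at 33.4, 13.8, 30.3 and 86.6 CPM with Sl OS. A further 6 were AT3G22142, AT1G13650, AT4G12980, AT1G67750, AT4G20940 (GHR1, a receptor-like kinase known from guard cells) and AT3G23740, with differences of -4.29 to -3.99. The last of the 12, AT3G13404, was counted at 50, 9 and 20 reads in W and at 2, 0, 0 and 0 reads with Sl OS. AT1G67750, a pectate lyase-like gene, was not called in the batch of replicates 3 and 4 (-2.82, adjusted p = 0.075) or in a fit on the 2 groups alone, nor was AT3G23740 on log2(CPM + 5).

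**Figure D2:**
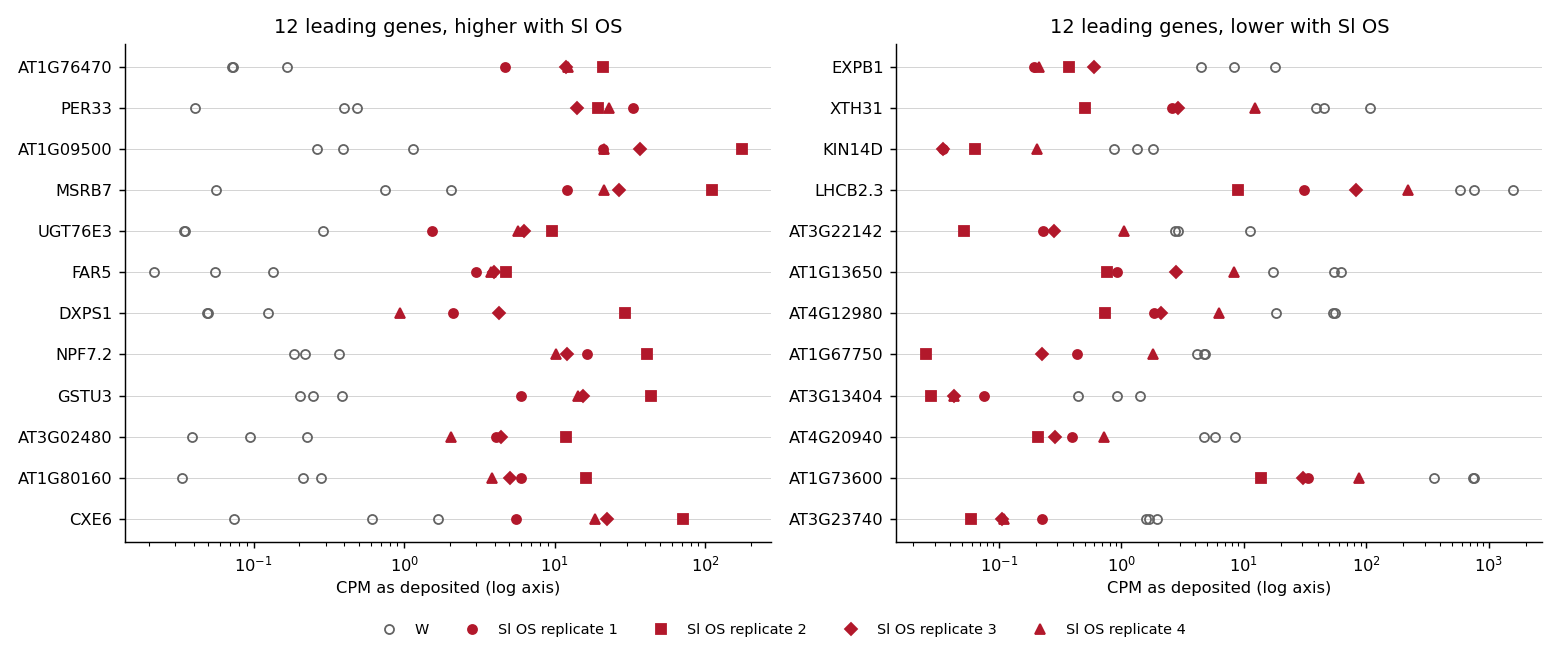
Level (CPM as deposited, logarithmic axis) of the 12 leading genes higher with Sl OS (left) and the 12 leading genes lower (right) in each library at 3 h. Open circles are the 3 W libraries and filled red symbols the 4 Sl OS libraries, with a different shape for each replicate. In all 24 genes the red symbols lie on one side of the open circles, which the rule for choosing them required.

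A total of 39 gene lists, with 503 genes in the table, and 7 separate lists of cell type markers was described by counts of calls and by the median difference. These are to be read beside the 13.9% higher, the 18.1% lower and the median of 0.003 over all genes. Of the 503 genes, 141 were higher and 124 lower. In the batch of replicates 3 and 4 alone, aliphatic GS genes lower numbered 10 in place of 17 and Calvin cycle genes lower 13 in place of 17. WRKY genes higher numbered 1 in place of 5, JAZ genes 2 in place of 4 and salicylate genes 0 in place of 3. Phenylpropanoid genes higher rose from 8 to 14. The median of light harvesting genes was -2.34 in replicates 1 and 2 and -1.26 in replicates 3 and 4.

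**Figure D3:**
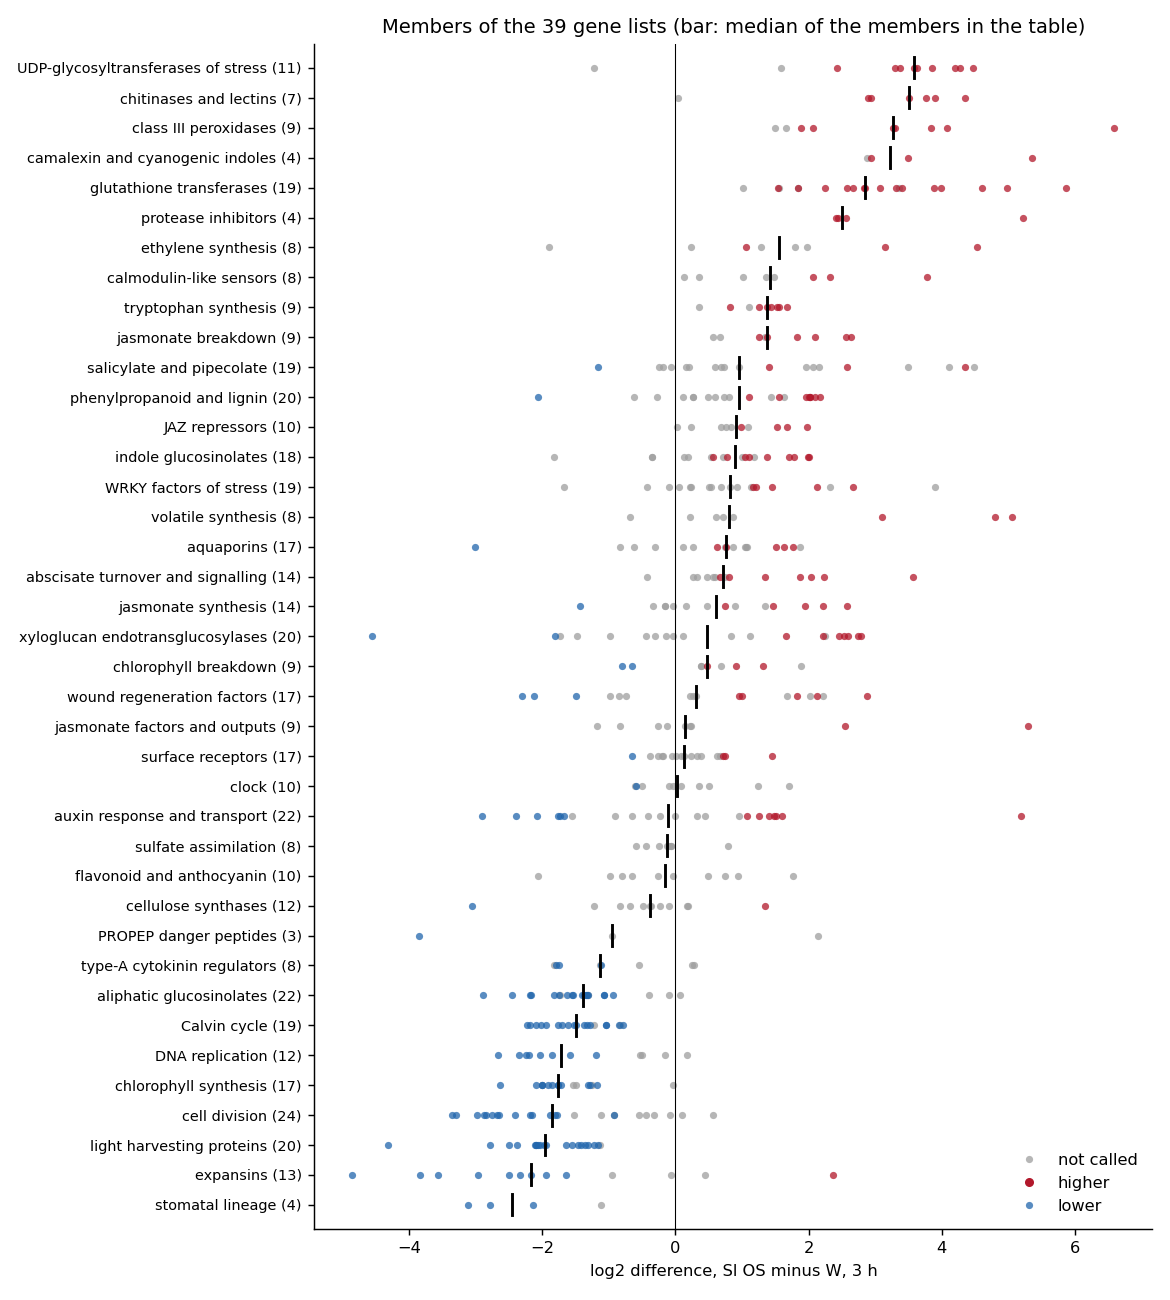
Difference between Sl OS and W at 3 h (log2, horizontal axis) of each member of 39 gene lists, which are ordered by their median (black bar), with the number of members in the table in brackets. Red, blue and grey points are members called higher, lower and not called. Members of the lists of UDP-glycosyltransferases, peroxidases and glutathione transferases lie mostly above 1 and those of light harvesting proteins all below -1.

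In the JA pathway, Sl OS raised some steps of synthesis and most steps of breakdown over a wound response that was already strong. Of 14 synthesis genes, 10 were higher in W than in control, and with Sl OS 5 were higher than in W and 1 was lower. LOX3, a lipoxygenase of the first step, was at 132, 171 and 130 CPM in W and at 550, 1050, 1030 and 918 CPM with Sl OS (difference 2.58, SE 0.53, adjusted p = 0.0014). LOX2, the most studied wound lipoxygenase, was at 16100, 15300 and 13000 CPM in W and at 19400, 13300, 13100 and 12600 CPM with Sl OS. These LOX2 groups overlapped, and its difference of -0.03 (SE 0.20) was not called. AOS, which follows the lipoxygenases, was not called either (-0.15, SE 0.44). ACX1, of beta-oxidation (2.21), and JAR1, which joins JA to isoleucine to form the active hormone (1.47, SE 0.32, adjusted p = 0.0021), were higher. AOC4, an allene oxide cyclase, was lower (-1.44), while its paralogue AOC2 was higher (0.74).

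Of 9 genes that inactivate JA, 6 were higher with Sl OS and none was lower, with a median of 1.37, and all 9 were already higher in W than in control. JOX3, which hydroxylates JA, was at 88.0, 95.6 and 73.1 CPM in W and at 498, 452, 549 and 609 CPM with Sl OS. The 4 Sl OS values were close to each other and far above W, with a difference of 2.56 (SE 0.49, adjusted p = 0.00078). CYP94B3 and CYP94C1, which oxidise JA-isoleucine in successive steps, differed by 2.64 (SE 0.54, adjusted p = 0.0014) and 1.25 (SE 0.38, adjusted p = 0.018). JOX4 was at 256 to 385 CPM in W and 628 to 1070 CPM with Sl OS, but its difference of 1.35 had an SE of 0.91 and was not called. Without W replicate 2 the call of CYP94C1 was lost (adjusted p = 0.1).

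The JAZ repressors, themselves targets of JA signalling, held fewer calls. Of 10 in the table, 4 were higher and none lower, with a median of 0.91. JAZ10 was at 14.7, 20.9 and 10.5 CPM in W and at 39.7, 39.5, 59.0 and 53.8 CPM with Sl OS (1.68, SE 0.52, adjusted p = 0.018). JAZ1 and JAZ3 differed by 1.53 and 0.99, and the largest value was that of JAZ7 (1.98). JAZ8 was not called (0.69, SE 0.74). The call of JAZ7 was lost without W replicates 1, 2 or 3 or Sl OS replicates 1, 2 or 3 (adjusted p 0.056 to 0.14) and that of JAZ10 without W replicates 2 or 3 or Sl OS replicate 3 (adjusted p 0.055 to 0.087). The count fell from 4 to 2 without W replicates 2 or 3 or Sl OS replicate 3. In contrast, MYC2, the main transcription factor of the wound branch, was at 224, 312 and 222 CPM in W and at 227, 122, 246 and 236 CPM with Sl OS, which overlap (-0.27, SE 0.45). VSP2, a storage protein under MYC2, was not called, nor was PDF1.2A, a defensin of the other branch. TAT3, a tyrosine aminotransferase raised by JA, was higher (2.54, adjusted p = 0.031), and that call was lost without W replicates 1, 2 or 3 or Sl OS replicates 2 or 3 (adjusted p 0.052 to 0.12).

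ORA59, the ethylene response factor that drives the defensin branch, showed the largest difference of the JA factors. It was counted at 0, 2 and 2 reads in W and at 218, 148, 47 and 81 reads with Sl OS, and all Sl OS libraries were above all W libraries (5.29, SE 0.86, adjusted p = 0.00025). It was also 1 of 8 genes that were lower in W than in control and higher with Sl OS than with W. Wounding alone gave a difference from control of -3.08 (adjusted p = 0.041), and control leaves were at 0.307 to 1.25 CPM. IAA16, an auxin response repressor, was another of the 8, at 82.2, 98.3 and 88.5 CPM in W, 174, 222, 163 and 206 CPM with Sl OS and 119 to 145 CPM in control.

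JAZ3 and ORA59 are printed as examples of called genes of this pathway with the G-box, CACGTG, which MYC factors bind. The sequences are the 250 bases before the annotated gene start in the RefSeq assembly TAIR10.1, written 5′ to 3′ on the strand of the gene, with each G-box in capitals. JAZ3 lies on the plus strand with its window at chr3:6119457-6119706, and ORA59 on the plus strand with its window at chr1:1882657-1882906. No other annotated gene overlaps either window.
JAZ3: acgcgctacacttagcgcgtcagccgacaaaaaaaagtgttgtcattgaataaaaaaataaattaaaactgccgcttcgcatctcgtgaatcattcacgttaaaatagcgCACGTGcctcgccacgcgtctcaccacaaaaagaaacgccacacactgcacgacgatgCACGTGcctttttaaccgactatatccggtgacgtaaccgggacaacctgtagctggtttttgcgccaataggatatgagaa
ORA59: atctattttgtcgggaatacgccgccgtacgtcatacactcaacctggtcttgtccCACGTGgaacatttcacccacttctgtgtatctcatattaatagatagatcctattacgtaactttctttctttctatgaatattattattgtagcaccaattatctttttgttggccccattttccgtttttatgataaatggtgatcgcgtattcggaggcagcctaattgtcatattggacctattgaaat
Searched on both strands, the G-box was found 2 times before JAZ3, at -140 and -82 from the gene start, and 1 time before ORA59, at -194. It was present in 4 of 10 JAZ windows (40.0%), in 7.53% of the 18833 genes with a window, in 8.8% of genes called higher and in 6.43% of genes called lower. The other JA lists held it in 2 of 14 synthesis windows, 0 of 9 breakdown windows and 1 of 9 windows of factors and outputs. Clock genes, with few calls, held it in 5 of 10 windows. The shorter ACGTG, which every G-box contains, was present in 23.6% of all windows, in 28.4% of those of genes higher and in 21.0% of those of genes lower. The GCC box, GCCGCC, the motif of ethylene response factors, was present in 2.04%, 2.21% and 1.67%. A match of letters is a description of the window and not a site shown to be bound.

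Ethylene and abscisate genes included called increases, and salicylate genes were scattered. ACS2, which makes the ethylene precursor ACC, was at 0.55, 1.66 and 1.41 CPM in W and at 4.51, 30.8, 9.75 and 6.92 CPM with Sl OS (3.15, SE 0.81, adjusted p = 0.0063). ACS11 (4.53) and the ACC oxidase ACO4 (1.06) were higher too, so 3 of 8 ethylene genes were higher and none lower, while ACS6 was not called (1.29, SE 0.53). Without Sl OS replicate 1 the count of ethylene genes higher was 5. Of 14 abscisate genes 7 were higher and none lower, and without W replicates 1 or 3 there were 4 higher. They included the phosphatases HAI1 (3.57) and ABI2 (1.34), which hold back abscisate signalling, and CYP707A1 (1.87), which breaks the hormone down. NCED3, the rate-limiting enzyme of its synthesis (0.32), and the response gene RD29A (0.47) were not called.

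Of 19 genes of salicylate and pipecolate, 3 were higher, 1 was lower and 15 were not called, with a median of 0.95. PR1, the common salicylate marker, was at 0.205, 26.0 and 0.707 CPM in W and at 0.281, 768, 389 and 4.48 CPM with Sl OS. It was thus high in Sl OS replicates 2 and 3 and within the W range in replicates 1 and 4, and its difference of 4.48 had an SE of 3.00. ICS1, the main enzyme of salicylate synthesis, was at 8.4, 18.3 and 16.2 CPM in W and at 4.01, 28.5, 18.1 and 6.87 CPM with Sl OS, without a call (-0.18). EDS5, which exports salicylate precursors from plastids (1.4), PBS3, which conjugates them (2.58, groups overlapping), and UGT76B1, which glucosylates salicylate and related signals (4.34, SE 1.22, adjusted p = 0.011), were higher. EDS1, a hub of pathogen immunity, was lower (-1.16). Every one of these calls was lost in at least 1 fit that left out a library. That of PBS3 was lost without W replicates 1, 2 or 3 or Sl OS replicates 2 or 3 (adjusted p 0.083 to 0.19), that of EDS5 without W replicates 1 or 2 or Sl OS replicate 3 (adjusted p 0.05 to 0.12), that of UGT76B1 without W replicate 1 (adjusted p = 0.06) and that of EDS1 without W replicate 3 (adjusted p = 0.066). Without W replicate 1 none of the 19 genes was called higher.

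Receptors of damage and microbial patterns changed little. Of 17, LORE (1.45), which senses hydroxylated fatty acids, BAK1 (0.75) and BKK1 (0.72) were higher, and MIK2 was lower (-0.66). FLS2 (0.08), CERK1 (0.01) and the oxidase RBOHD (-0.39), a source of apoplastic reactive oxygen, were not called. Of the danger peptide precursors in the table, PROPEP1 was at 0.643, 1.1 and 0.958 CPM in W and at 0.0285, 0.147, 0.0423 and 0.0835 CPM with Sl OS. Its groups were widely apart (-3.85, SE 0.70, adjusted p = 0.00054). PROPEP2 was not called (2.14, SE 0.87). Of 19 stress WRKY factors 5 were higher and none lower, led by WRKY40 at 11.5, 22.1 and 15.9 CPM in W and 68.0, 222, 90.9 and 78.2 CPM with Sl OS (2.67, SE 0.61, adjusted p = 0.0031), whereas WRKY33 (0.53), WRKY18 (0.92) and WRKY53 (0.23) were not called. Of 8 calmodulin-like sensors of calcium, CML37 (2.06), CML38 (2.32) and CML39 (3.77) were higher and CML42 was not called (0.13). The call of BKK1 was lost without W replicates 1, 2 or 3 or Sl OS replicates 2 or 3 (adjusted p 0.055 to 0.16), that of MIK2 without W replicates 1, 2 or 3 or Sl OS replicates 1 or 4 (adjusted p 0.069 to 0.14) and that of CML37 without W replicates 1, 2 or 3 or Sl OS replicates 1, 2 or 4 (adjusted p 0.069 to 0.15). The count of WRKY genes higher fell from 5 to 2 without W replicate 1 or Sl OS replicate 2, and to 3 without W replicate 3 or Sl OS replicate 3.

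GS genes divided by branch. Of 22 aliphatic GS genes, 17 were lower with Sl OS, none was higher and the median was -1.39, whereas of 18 indole GS genes 9 were higher, none was lower and the median was 0.89. MYB28, the main transcription factor of the aliphatic branch, was at 82.4, 101 and 78.0 CPM in W and at 28.0, 11.5, 16.2 and 20.9 CPM with Sl OS. The groups were well apart (-2.17, SE 0.48, adjusted p = 0.0025). Its paralogues MYB29 (-0.40, SE 0.40) and MYB76 (-0.10, SE 0.40) overlapped between groups and were not called. GSTU20, a glutathione transferase tied to aliphatic GS, had the largest decrease, from 442, 322 and 317 CPM in W to 76.3, 12.4, 64.1 and 84.1 CPM with Sl OS (-2.89, SE 0.50, adjusted p = 0.00039). MAM1, which elongates the methionine chain, was at 827, 711 and 594 CPM in W and at 417, 98.5, 237 and 228 CPM with Sl OS (-1.63, SE 0.48, adjusted p = 0.014). CYP79F1, which forms the aldoxime, differed by -1.54 (SE 0.50, adjusted p = 0.025). The call of MAM1 was lost without W replicates 1 or 2 or Sl OS replicate 2 (adjusted p 0.054 to 0.076) and that of CYP79F1 without W replicates 1 or 2 or Sl OS replicate 2 (adjusted p 0.088 to 0.13). The count of aliphatic GS genes lower fell from 17 to 10 without W replicate 1 or Sl OS replicate 2 and to 9 without W replicate 2, and that of indole GS genes higher from 9 to 4 without W replicate 1. In control leaves and in W the median of the list was alike (W minus control -0.03). Aliphatic GS genes held 0.516%, 0.451% and 0.374% of all reads in W and 0.276%, 0.0982%, 0.189% and 0.177% with Sl OS, and 0.28% to 0.503% in control.

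In the indole branch CYP83B1, which commits indole aldoxime to GS, was at 447, 841 and 519 CPM in W and at 1170, 1170, 1440 and 1080 CPM with Sl OS (1.11, SE 0.23, adjusted p = 0.0015). CYP79B2, which makes the aldoxime, was also higher (1.05, groups overlapping), as was MYB122 (1.99). The regulators MYB34 (1.18, SE 0.70) and MYB51 (1.00, SE 0.44) were not called, nor was CYP81F2 (-0.36), which makes the substituted indole GS. CYP81F1 had the largest called difference (2.00), which was lost without W replicates 1 or 3 or Sl OS replicate 2 (adjusted p 0.056 to 0.12). Tryptophan synthesis, which feeds this branch, was higher in 7 of 9 genes with a median of 1.38. TSB1, which performs the last step, was at 433, 481 and 389 CPM in W and at 1160, 1180, 1190 and 1080 CPM with Sl OS. Both groups were even and far apart (1.43, SE 0.15, adjusted p = 1.8e-05). TSA1 (1.68), IGPS (1.55) and ASA1 (1.38), the regulated entry enzyme, were higher as well.

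Camalexin, another indole defence, rested on 4 genes of the table. CYP71B15 (PAD3), which makes camalexin, was at 0.606, 3.33 and 1.42 CPM in W and at 18.0, 589, 45.2 and 23.0 CPM with Sl OS. All Sl OS libraries were above W, with replicate 2 far above the other 3 (5.36, SE 1.31, adjusted p = 0.0046). FOX1 (3.49) was higher and so was CYP71A12 (2.94), whose groups overlapped, while CYP71A13 was not called (2.87, SE 1.51). The call of CYP71A12 was lost without W replicates 1 or 3 or Sl OS replicates 1 or 2 (adjusted p 0.063 to 0.24) and that of FOX1 without W replicates 1 or 2 or Sl OS replicate 2 (adjusted p 0.056 to 0.1), so 1 of the 4 genes was higher without W replicate 1 or Sl OS replicate 2. In the batch of replicates 3 and 4 alone none of the 4 genes was called, and CYP71B15 was not called by voom on recovered reads. Sulfate assimilation, which supplies the sulfur of GS, had no call in either direction among 8 genes (APR2 -0.13, APS1 -0.07).

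Detoxification genes were higher in most members listed. Glutathione transferases (GST) join glutathione to reactive compounds, and 15 of 19 were higher, none lower, with a median of 2.85. GSTU3 was counted at 12, 5 and 4 reads in W and at 231, 1732, 422 and 366 reads with Sl OS (5.86, SE 0.79, adjusted p = 6.7e-05). GSTU19, at a high level, was at 416, 352 and 361 CPM in W and at 1560, 4100, 1350 and 1150 CPM with Sl OS (2.24, SE 0.32, adjusted p = 9.8e-05). GSTF6 was at 214, 238 and 270 CPM in W and at 1290, 2230, 1280 and 1560 CPM with Sl OS (2.66, SE 0.53, adjusted p = 0.0011). No group overlapped in these, and replicate 2 was the highest in each. GSTU1 (3.40) and GSTF7 (3.07) were higher too. GSTF6 and GSTF7 are close copies, so the split of reads between them is uncertain. UDP-glycosyltransferases (UGT), which attach sugars to hormones and toxins, were higher in 9 of 11 genes with a median of 3.58. UGT73B3 was at 3.08, 2.28 and 2.0 CPM in W and at 46.6, 102, 39.4 and 50.7 CPM with Sl OS (4.47, SE 0.62, adjusted p = 8.3e-05). UGT74F2, which glucosylates salicylate (3.3), and UGT76E12 (3.85) were also higher.

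GSTU3 and GSTF7 are shown because W-boxes, the sites of WRKY factors, were frequent in this family. The windows are again the 250 bases before the gene start in RefSeq TAIR10.1, 5′ to 3′ on the gene's strand, with TTGACC or TTGACT of either strand in capitals. Both genes lie on the minus strand, with windows at chr2:12629641-12629890 for GSTU3 and chr1:659981-660230 for GSTF7, and no other gene overlaps them.
GSTU3: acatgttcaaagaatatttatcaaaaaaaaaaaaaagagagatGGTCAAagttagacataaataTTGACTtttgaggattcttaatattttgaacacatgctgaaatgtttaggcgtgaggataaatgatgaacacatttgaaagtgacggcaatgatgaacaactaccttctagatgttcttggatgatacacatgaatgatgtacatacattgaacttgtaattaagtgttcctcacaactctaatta
GSTF7: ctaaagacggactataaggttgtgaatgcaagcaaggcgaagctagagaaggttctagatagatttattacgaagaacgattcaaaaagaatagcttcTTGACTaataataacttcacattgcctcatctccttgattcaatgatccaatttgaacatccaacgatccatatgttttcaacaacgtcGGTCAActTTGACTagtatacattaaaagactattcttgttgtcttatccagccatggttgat
GSTU3 held 2 W-boxes, at -207 and -186, and GSTF7 held 3 between -152 and -55. A W-box was present in 13 of 19 GST windows (68.4%) and in 6 of 9 windows of tryptophan synthesis (66.7%), beside 28.3% of all windows, 33.6% of those of genes called higher and 25.0% of those of genes called lower. It was also present in 10 of 17 windows of surface receptors (58.8%), a list with few calls. JA breakdown genes, with many increases, held it in 1 of 9 windows (11.1%). GST genes lie partly in tandem arrays and share sequence, so their windows are not independent.

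Proteins directed at attackers or at the wall were raised as well. Of 9 class III peroxidases 7 were higher, among them PER71 at 20.1, 57.2 and 21.1 CPM in W and 219, 413, 231 and 247 CPM with Sl OS (3.3, SE 0.40, adjusted p = 3.4e-05), and PER34 (1.88). All 4 protease inhibitors, which block digestive enzymes of insects, were higher. TI1 was at 23.9, 21.2 and 13.1 CPM in W and at 118, 104, 88.4 and 99.6 CPM with Sl OS (2.41, SE 0.31, adjusted p = 5.6e-05), and KTI5 differed by 2.44. KTI1 had the largest value (5.22), with overlapping groups, and its call was lost without Sl OS replicate 2 (adjusted p = 0.066) and without W replicate 3 (0.056). Of 7 chitinases and lectins 6 were higher, with a median of 3.5. The lectin gene LECa was at 21.1, 57.9 and 84.1 CPM in W and at 403, 390, 615 and 854 CPM with Sl OS (3.5, SE 0.65, adjusted p = 0.00063). The chitinase CHI differed by 4.35, a call that was lost without W replicates 1 or 3 (adjusted p 0.054 to 0.062), and CHIB, the basic chitinase, was not called (0.04).

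Volatiles and phenylpropanoids were mixed. TPS04, which leads to the homoterpene TMTT, was at 1.25, 7.73 and 4.75 CPM in W and at 35.2, 635, 81.8 and 89.9 CPM with Sl OS (5.05, SE 1.3, adjusted p = 0.0065), and BSMT1, which makes methyl salicylate, differed by 4.8 (SE 0.90, adjusted p = 0.00069). HPL1, the enzyme of green leaf volatiles, was at 48.6, 44.3 and 32.5 CPM in W and at 41.0, 9.74, 32.5 and 33.0 CPM with Sl OS, without a call (-0.68), and TPS10 was not called (0.72). Altogether 3 of 8 volatile genes were higher. Of 20 phenylpropanoid genes 8 were higher and 1 was lower (4CL3, -2.06). CAD7 had the largest called difference (2.17), and CAD5, which makes lignin alcohols, was at 423, 355 and 350 CPM in W and at 1090, 1540, 1670 and 1460 CPM with Sl OS (1.96, SE 0.40, adjusted p = 0.0012). C4H (1.55) and COMT1 (2.02) were higher, but PAL1, the entry enzyme, was not called (1.63, SE 0.69). The call of C4H was lost without W replicates 1 or 2 or Sl OS replicate 3 (adjusted p 0.05 to 0.087), that of COMT1 without W replicates 1 or 2 or Sl OS replicate 3 (adjusted p 0.053 to 0.084) and that of 4CL3 without W replicates 1, 2 or 3 or Sl OS replicates 2 or 3 (adjusted p 0.054 to 0.17). Without W replicate 2 the phenylpropanoid genes higher numbered 5. Of 10 flavonoid genes none was called, with CHS at 0.49 (SE 1.70) and DFR at 1.77 (SE 1.29).

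Photosynthesis genes were lower in most members listed. Of 20 light harvesting genes 19 were lower with a median of -1.96, of 19 Calvin cycle genes 17 were lower with a median of -1.49, and of 17 chlorophyll synthesis genes 12 were lower with a median of -1.76. None of these genes was higher. LHCB1.3, a major antenna protein, was at 24000, 18400 and 22800 CPM in W and at 8530, 4750, 9200 and 12600 CPM with Sl OS (-1.42, SE 0.26, adjusted p = 0.00051). RCA, which keeps Rubisco active, was at 4270, 5990 and 7240 CPM in W and at 1390, 572, 2200 and 2760 CPM with Sl OS (-1.95, SE 0.53, adjusted p = 0.0091). CHLH, a subunit of magnesium chelatase, was at 1220, 1190 and 2180 CPM in W and at 204, 78.0, 399 and 594 CPM with Sl OS (-2.64, SE 0.69, adjusted p = 0.007). In all of these, Sl OS replicate 2 was the lowest and replicate 4 the nearest to W, and no group overlapped. LHCA1 (-1.94), PRK (-2.02), FBA1 (-2.23) and PORB (-1.72) were lower, and LHCB4.3 (-1.14), HEMA1 (-2.01) and GUN4 (-1.25) were not called. LHCB1.3 has near-identical copies, as have the RBCS genes, so reads within these families may be split unevenly. The calls of RCA and FBA1 were lost without W replicate 3 (adjusted p = 0.052 and 0.05) and that of PORB without W replicate 1 (0.052). That of RBCS1A was lost without W replicate 3 (0.078) and without Sl OS replicate 2 (0.066). Without W replicate 3 the Calvin cycle genes lower fell from 17 to 11.

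Light harvesting genes took 9.67% to 11.6% of all reads in the W libraries and 3.97%, 2.0%, 4.38% and 5.9% with Sl OS, against 11.4% to 16.7% in control, and Calvin cycle genes took 2.92% to 3.69%, 0.82% to 1.95% and 3.83% to 4.78%. All 5 mesophyll markers, which are photosynthesis genes themselves, were lower (median -1.49), 2 of them still so without W replicate 3 and 3 without Sl OS replicate 2, with 3.73% to 4.45% of reads in W and 0.908% to 2.54% with Sl OS. Of 4 epidermis markers and 6 vein markers none was called, with medians of 0.06 and -0.53. Of 5 guard cell markers OST1 was higher (1.14) and MYB60 lower (-0.96). In whole discs, fewer cells of a type and less RNA per cell cannot be told apart. Of 9 chlorophyll breakdown genes 3 were higher and 2 lower. SGR1, which removes magnesium from chlorophyll, was at 18.4, 28.1 and 26.0 CPM in W and at 41.7, 64.3, 65.6 and 66.7 CPM with Sl OS (1.31, SE 0.36, adjusted p = 0.0092, and 0.052 without W replicate 1). NOL had the largest decrease (-0.81), PAO was higher (0.48, adjusted p = 0.02), a call lost without W replicates 1 or 3 or Sl OS replicate 2 (adjusted p 0.053 to 0.088), and CLH1 was not called. Without W replicate 1 the breakdown genes higher fell from 3 to 1.

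**Figure D4:**
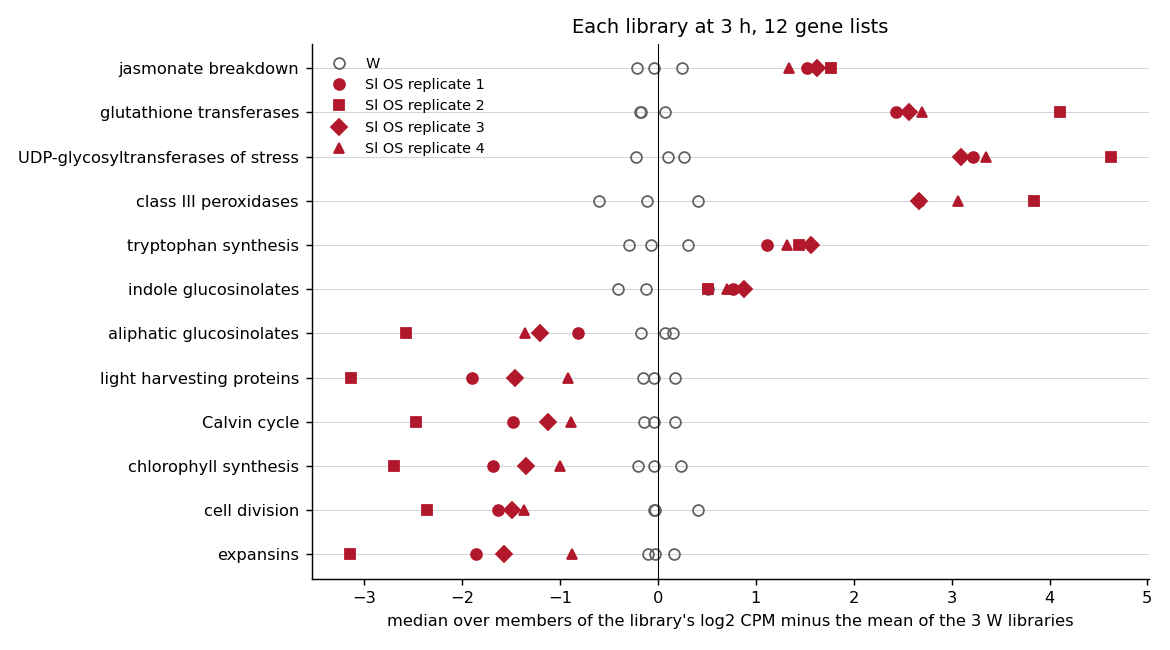
Median over the members of each of 12 gene lists of the log2 CPM of a library minus the mean of the 3 W libraries (horizontal axis), for each library at 3 h. Open circles are W libraries and filled red symbols Sl OS libraries by replicate. In 11 lists the Sl OS libraries lie on one side of the W libraries, and in that of indole glucosinolates W replicate 2 and Sl OS replicate 2 are both at 0.51. Sl OS replicate 2 is the farthest from W in most lists, such as UDP-glycosyltransferases (4.63), light harvesting (-3.14) and expansins (-3.15). Sl OS replicate 3 is the farthest in tryptophan synthesis (1.56) and indole glucosinolates (0.88).

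Genes of dividing and growing cells were lower in many members. Of 24 cell division genes 15 were lower and none higher, with a median of -1.85, and of 12 DNA replication genes 8 were lower and none higher, with a median of -1.72. CYCB1-2, a mitotic cyclin, was at 1.82, 0.551 and 0.93 CPM in W and at 0.3, 0.103, 0.0886 and 0.152 CPM with Sl OS (-2.85, SE 0.54, adjusted p = 0.00071). KNOLLE, a syntaxin of the cell plate, was at 1.96, 2.18 and 1.25 CPM in W and at 0.337, 0.0951, 0.189 and 0.428 CPM with Sl OS (-2.98, SE 0.51, adjusted p = 0.00035). MCM7, a subunit of the replicative helicase, was at 6.25, 5.21 and 7.6 CPM in W and at 1.59, 0.555, 0.843 and 1.63 CPM with Sl OS (-2.66, SE 0.51, adjusted p = 0.00083). All Sl OS values lay below all W values, at low read numbers for the mitotic genes. TPX2, a spindle protein, had the largest decrease of its list (-3.35), and PCNA1, the replication clamp, was lower (-2.35), while its paralogue PCNA2 was not called (0.18). CDKA-1, the constitutive cell cycle kinase (-0.44), the inhibitor KRP1 (0.10) and RNR1 (-0.53) were not called either.

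CYCB1-2 is shown for the letters AACGG, the core of the mitosis-specific activator (MSA) element bound by certain MYB factors of mitosis. The window follows the same definition, with AACGG of either strand in capitals. CYCB1-2 lies on the minus strand with its window at chr5:1861704-1861953, and no other gene overlaps it.
CYCB1-2: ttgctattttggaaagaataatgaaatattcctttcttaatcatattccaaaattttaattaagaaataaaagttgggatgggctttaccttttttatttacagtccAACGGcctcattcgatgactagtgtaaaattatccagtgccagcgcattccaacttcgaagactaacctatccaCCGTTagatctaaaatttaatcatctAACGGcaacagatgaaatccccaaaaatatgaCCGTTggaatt
CYCB1-2 held 4 matches between -143 and -11. The letters were present in 13 of 24 cell division windows (54.2%), beside 22.0% of all windows, 22.8% of those of genes called lower and 20.8% of those of genes called higher. Only 1 of 12 DNA replication windows (8.33%) held them, and KRP1, which was not called, had them too. Outside these lists, they were present in 10 of 22 auxin windows (45.5%), 4 of 10 JAZ windows (40.0%) and 1 of 22 aliphatic GS windows (4.55%).

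Cell wall families split by member. Of 13 expansins 9 were lower and 1 was higher. EXPA8 was at 17.3, 30.2 and 10.9 CPM in W and at 1.65, 0.743, 0.879 and 2.63 CPM with Sl OS (-3.84, SE 0.61, adjusted p = 0.00021). EXPA10 went the other way, from 85.9, 69.7 and 74.9 CPM in W to 286, 473, 513 and 400 CPM with Sl OS (2.36, SE 0.44, adjusted p = 0.00063), and EXPA1 was not called (-0.07). The groups did not overlap in EXPA8 or EXPA10. Of 20 xyloglucan enzymes 7 were higher and 2 lower, with 1 lower without W replicates 2 or 3 or Sl OS replicate 2. XTH22, known for its induction by touch, was at 23.1, 7.42 and 18.5 CPM in W and at 106, 178, 98.2 and 110 CPM with Sl OS (2.79, SE 0.59, adjusted p = 0.0017), XTH24 differed by 2.46, and XTH4 was not called (-0.31). Of 12 cellulose synthases and related genes CSLD2 was higher (1.35) and CSLD5 lower (-3.05), while CESA1 (-0.10) and CESA3 (-0.24), of the primary wall, were not called. Aquaporins had 5 of 17 higher, and 3 without W replicate 2 or Sl OS replicate 3, led by PIP1-4 (1.77), and PIP2-8 lower (-3.01). TIP1-1, of the vacuole membrane, was at 669, 799 and 815 CPM in W and at 2100, 2410, 2230 and 2060 CPM with Sl OS (1.51, SE 0.22, adjusted p = 0.00012), and PIP2-1 was not called (1.05, SE 0.57).

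Growth hormone genes also went both ways. Of 22 auxin genes 7 were higher and 6 lower. GH3.3, which conjugates auxin to amino acids, was at 0.229, 3.06 and 1.31 CPM in W and at 11, 251, 31.6 and 24.7 CPM with Sl OS (5.19, SE 1.16, adjusted p = 0.0025). IAA14 had the largest decrease (-2.91). AUX1, an auxin influx carrier, was at 29.2, 28.5 and 37.0 CPM in W and at 16.6, 5.41, 9.79 and 11.4 CPM with Sl OS (-1.67, SE 0.36, adjusted p = 0.0018), and LAX3 was lower too (-2.08). IAA19 was higher (1.48), a call that was lost without W replicates 1, 2 or 3 or Sl OS replicates 3 or 4 (adjusted p 0.051 to 0.074). Without W replicates 1 or 3 the auxin genes higher numbered 4. Of 8 type-A response regulators, which report cytokinin signalling, 3 were lower and none higher, with ARR5 at 4.76, 3.37 and 4.31 CPM in W and 1.4, 0.981, 1.23 and 1.55 CPM with Sl OS (-1.75, SE 0.35, adjusted p = 0.0012). ARR9 had the largest called decrease (-1.80, adjusted p = 0.025), lost without W replicates 2 or 3 or Sl OS replicates 1 or 2 (adjusted p 0.073 to 0.13), and ARR4 was not called (0.25). Of the stomatal lineage, 4 genes were in the table and 3 were lower. EPFL9 (stomagen), a mesophyll peptide that promotes stomata, was at 2.77, 2.6 and 2.53 CPM in W and at 0.352, 0.0783, 0.57 and 0.679 CPM with Sl OS (-3.12, SE 0.59, adjusted p = 0.00077), and the receptor kinase ERECTA differed by -2.14, while TMM was not called (-1.12).

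Genes were also sorted by their response to the wound itself. In W, 661 genes (3.5% of those tested) were higher than in control by more than 1 on the log2 scale, and 104 (0.55%) were lower than in control. Of the 661, 294 were higher still with Sl OS, 353 were not called and 14 were lower. Of the 104, 50 were lower still and 8 were higher. The control differences share the W libraries with this comparison, so these counts are a sorting of genes and not a test.

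ERF114, an ethylene response factor known from branching and regeneration, was at 34.1, 11.5 and 10.7 CPM in W, at 3.41, 3.21, 3.56 and 4.42 CPM with Sl OS and at 0.0272 to 0.516 CPM in control. All Sl OS values lay below W and above control, with W replicate 1 the highest (-2.31, SE 0.58, adjusted p = 0.0055). ML3, a lipid-recognition protein, was at 177, 126 and 174 CPM in W and at 75.4, 16.4, 66.5 and 64.4 CPM with Sl OS (-1.76, SE 0.47, adjusted p = 0.0077). SDI1, a regulator that lowers GS under sulfur limitation, was at 22.8, 7.6 and 14.4 CPM in W and at 7.81, 1.68, 3.78 and 7.71 CPM with Sl OS (-1.72, SE 0.37, adjusted p = 0.0018). The groups of SDI1 overlapped, those of ML3 did not, and in both Sl OS replicate 2 was the lowest. The largest difference was that of AT4G38410, counted at 86, 31 and 57 reads in W and at 4, 3, 5 and 13 reads with Sl OS (-3.14, SE 0.51, adjusted p = 0.00025). AT4G18440 was at 3660, 3600 and 3890 CPM in W and at 1500, 476, 1210 and 1850 CPM with Sl OS (-1.78), APY5, a nucleotide phosphatase, differed by -1.81 and PLAT2 by -1.21. The other 7 were AT5G05965, AT2G28140, AT5G60470, AT5G12420, AT2G32487, AT1G31550 and AT5G02940, with differences of -2.18 to -0.54. Groups overlapped in SDI1, AT2G28140, AT5G12420 and AT5G02940.

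Several of these 14 calls were lost in fits that left out 1 library. Without W replicate 1, which was the highest W library in ERF114, SDI1 and AT4G38410, 8 of the 14 were called, without Sl OS replicate 2 there were 9, and without each of the other 5 libraries 10 to 13. The call of AT5G05965 was lost without W replicates 1 or 3 or Sl OS replicates 1 or 2 (adjusted p 0.078 to 0.16), that of AT2G28140 without W replicates 1 or 3 or Sl OS replicates 1 or 4 (adjusted p 0.052 to 0.23), that of AT5G60470 without W replicates 1, 2 or 3 or Sl OS replicates 1, 2 or 4 (adjusted p 0.059 to 0.17) and that of AT5G02940 without W replicates 1, 2 or 3 or Sl OS replicates 2, 3 or 4 (adjusted p 0.058 to 0.21). The calls of APY5 and AT2G32487 were lost without W replicate 1 or Sl OS replicate 2 (adjusted p 0.06 to 0.069). ERF114, ML3 and SDI1 were called without each library, but ML3 and SDI1 were not called in a fit on the 2 groups alone, where 9 of the 14 were. With the W samples numbered 1, 3 and 4 in the block, 12 of the 14 were called, and AT5G60470 and AT5G02940 were not. In the batch of replicates 3 and 4, with 2 libraries in each group, only AT4G38410 was called (-2.35, adjusted p = 0.0017), and ERF114 differed by -1.48 (adjusted p = 0.22), ML3 by -1.18 and SDI1 by -0.96. Replicates 1 and 2, with W replicate 1 as the single W library, gave -3.36, -2.33 and -2.65. A test of a difference between the batches also rests on that library and could not settle whether these values differ.

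**Figure D5:**
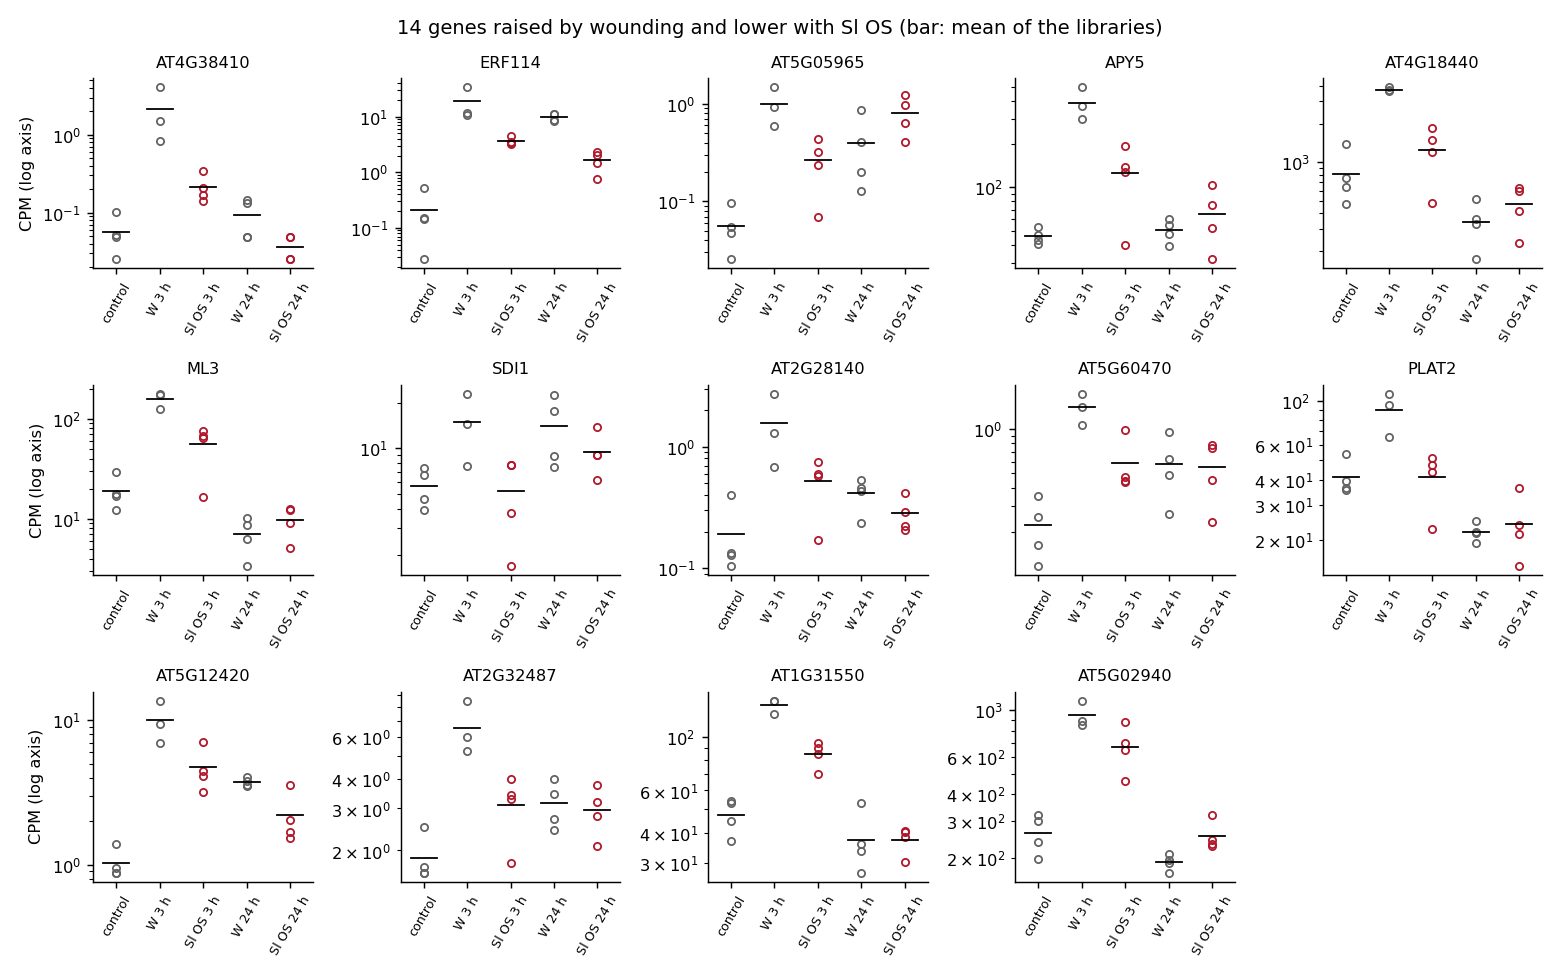
Level (CPM as deposited, logarithmic vertical axis) of the 14 genes higher in W than in control and lower with Sl OS than with W, in each library of control, W and Sl OS at 3 h and at 24 h. Circles are libraries, red for Sl OS, and bars are group means. At 24 h the Sl OS circles lie clearly below W in ERF114, where W was at 8.53 to 11 CPM and Sl OS at 0.756 to 2.28 CPM.

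ERF114 and its relatives were called in different directions. Of 17 factors known from wound healing and regeneration 5 were higher and 3 lower with Sl OS. ERF113 was at 4.16, 4.23 and 2.96 CPM in W and at 18.2, 49.5, 28.4 and 22.5 CPM with Sl OS, well above W (2.88, SE 0.45, adjusted p = 0.00021). ERF115, which acts in stem cell replenishment, differed by 1.83 (adjusted p = 0.026) and ERF108 by 2.13 (adjusted p = 0.034). WIND1, a factor of callus formation, was at 202, 209 and 169 CPM in W and at 208, 248, 240 and 229 CPM with Sl OS, without a call (0.26, SE 0.15). WOX4, a cambium factor, was lower (-2.12, adjusted p = 0.0081). The call of ERF115 was lost without W replicates 2 or 3 or Sl OS replicate 3 (adjusted p 0.063 to 0.14), that of ERF108 without W replicates 1 or 2 or Sl OS replicates 2 or 3 (adjusted p 0.071 to 0.13) and that of WOX4 without W replicate 1 (adjusted p = 0.054). The count of these factors higher fell from 5 to 1 without Sl OS replicate 3, to 2 without W replicates 2 or 3 and to 3 without W replicate 1, and without the last of these 1 was lower in place of 3.

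At 24 h little of the difference between Sl OS and W was left. limma called 45 genes higher (0.238%) and 29 lower (0.153%). The genes called higher at 3 h had a median difference of 0.05 at 24 h, and those called lower one of -0.04. Both times used separate libraries. Of the 45 genes higher at 24 h, 30 (66.7%) were higher at 3 h, beside 13.9% of all genes. They are 1.14% of the 2627. Of the 29 lower at 24 h, 7 (24.1%) were lower at 3 h, not far from the 18.1% of all genes. They are 0.204% of the 3423. A further 2 of the 29, the transporter genes ABCG1 and ABCG16, were higher at 3 h. The difference between Sl OS and W itself differed between 24 h and 3 h in 14.0% of all genes tested, among them 982 of the genes higher at 3 h and 1531 of those lower. Genes called or named for their 3 h values were chosen by values that this test uses again, which favours a difference.

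Among the leading genes, DXPS1 and GSTU3 were called at 24 h. DXPS1, which resembles the entry enzyme of plastid isoprenoid synthesis, was at 0.0499 to 0.577 CPM in W and at 5.04 to 8.3 CPM with Sl OS at 24 h, and its groups did not overlap at either time (5.95 at 3 h, 5.08 at 24 h, adjusted p = 0.026). Of 19 GSTs 5 were called higher at 24 h, namely GSTU1 (3.53), GSTU2 (3.19), GSTU3 (3.74), GSTU7 (1.26) and GSTU24 (3.41). ORA59 was at 0.0272 to 0.772 CPM in W and at 3.91 to 9.2 CPM with Sl OS at 24 h (4.45, SE 0.78, adjusted p = 0.01), and PDF1.2A, not called at 3 h, differed by 4.75 (adjusted p = 0.019). JOX2 (1.46, adjusted p = 0.0054), UGT74E2 (3.69, adjusted p = 0.02) and, in the other direction, ERF114 (-2.69, adjusted p = 0.026) and the lipase DAD1 (-2.30, adjusted p = 0.022) were the other listed genes called. In FAR5 the sign turned, with 1.74 to 3.01 CPM in W and 0.0806 to 0.411 CPM with Sl OS at 24 h (-3.56, adjusted p = 0.057), and the change from 3 h was called (-9.54, adjusted p = 0.0011). No photosynthesis, division or expansin gene listed was called at 24 h, with medians of -0.12 for light harvesting, -0.09 for cell division and -0.60 for expansins.

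Set against Pb OS at 3 h, Sl OS gave no call in any gene (0.0%), with 783 genes at an unadjusted p under 0.05 in limma and a lowest adjusted p of 0.13. For the 24 leading genes the difference between the secretions lay between -1.77 and 1.61, with all adjusted p at 1.0. EXPB1 was at 0.662 to 2.05 CPM with Pb OS and 0.192 to 0.6 CPM with Sl OS (-1.64, SE 0.74), and PER33 at 8.53 to 25.2 CPM and 14.1 to 32.9 CPM (0.44, SE 0.72). The SE of these 24 differences were 0.48 to 1.39, and a missed threshold does not show that the secretions act alike.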

How the data were processed

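Leaves of 27 samples in 7 groups were profiled by RNA-seq, and 7 of them carry the comparison. Reads were trimmed, aligned and counted by the authors, and the submitters' processing notes name cutadapt 2.5, STAR 2.5.3a and HTSeq 0.9.1. The deposited values are log2 CPM: the authors left out genes under 1 CPM in every sample, applied TMM scaling with a prior count of 1 and removed batch effects with limma. In these values the batches balance as 2 pairs of replicates, with the W samples at 3 h taken as 1, 3 and 4 (largest difference of the batch means 3.3e-09), whereas the labels number them 1, 2 and 3 (median difference 0.0267). Whole reads were recovered for all 18899 genes within 0.02 reads. The 7 libraries held 28.24 to 30.12 M reads (1e6). A library with 0 reads of a gene stands at about 0.0347 CPM before the batch shift, which had a median size of 0.187 on the log2 scale. Removal of batch effects before deposit leaves fewer free degrees than the fit assumes, so p-values may be too small.

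Each gene was tested with limma (3.58.1, under R 4.3.3), fitted to the deposited log2 CPM of all 27 samples, with a mean per group and the replicate number of the labels as a block of 4, since the study's methods name 4 batches, and Benjamini-Hochberg adjustment over all genes of a contrast (17 residual degrees of freedom). Deviations from the group means correlated, for samples of equal number, at -0.0963 to -0.00803 across genes on average, and the 3 pairs of W and Sl OS at 3 h at 0.126 to 0.465. The replicate numbers come from the labels. The block therefore placed W replicate 2 with the samples numbered 2, although it balanced with replicates 3 and 4. Gene lists and members were chosen with earlier results of these data known. Genes were named by a rule: the 12 with the largest difference in each direction among called genes with a mean of at least 1 CPM over the 27 samples and groups that do not overlap, in each list the called members with the largest difference in each direction and members of main steps, the genes raised by wounding and lower with Sl OS, and ERF114, ML3 and SDI1, which the study discusses. The 8 genes lower in W than in control and higher with Sl OS, and the genes named at 24 h or beside these, were chosen after their values were seen. Alternatives were no block, other numbers for the W samples, 2 batches with a variance trend, fits on fewer groups, log2(CPM + 5), a mean of at least 1 CPM, voom on recovered reads, each batch alone and each library left out. Every sample column of the table was used. The authors' table of fold changes and adjusted p-values was not used. A few items withheld from the text are not reported here.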

Additional observations from a re-analysis of the deposited data

Results flagged for a closer look

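In 12 of 193 named genes 1 Sl OS library at 3 h stood apart from the other 3, by Dixon's ratio of its gap to the whole range of log2 CPM, and chance gives about 1 in 20 such groups. Replicate 2 was that library in 8 genes: ML3 (0.896 of the range), MYC2 (0.888), CYP707A1 (0.885), CYP71A12 (0.872), UGT74F2 (0.853), HPL1 (0.838), GSTU20 (0.858) and IAA14 (0.86). Replicate 1 stood apart in LOX2 (0.874), ARR4 (0.943) and SGR1 (0.923), and replicate 3 in AT5G60470 (0.912).

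The difference between Sl OS and W was tested against that at 24 h with limma. As a signed value it was higher at 24 h than at 3 h in 1586 genes and lower in 1059. It differed between the times for 7 of the 12 leading genes higher at 3 h, for 8 of the 12 leading genes lower and for 4 of the 14 genes raised by wounding and lower with Sl OS. These genes were chosen by their 3 h values, which the test uses again, so these counts are a description only.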

How the results depend on the processing

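Counts of called genes moved with the fit. Without the replicate block limma called 2873 genes higher and 3683 lower, against 2627 and 3423 with it, and with the W samples numbered 1, 3 and 4 the block gave 2527 and 3329. A fit on the 2 groups alone gave 2376 and 2817, log2(CPM + 5) gave 2958 and 3164, a mean of at least 1 CPM gave 2556 and 3341, and voom on recovered reads gave 2864 and 3604. Fits on control and the 3 h groups gave 2202 and 2955 with the replicate block, and 2959 and 3827 with 2 batches. Leaving out single libraries gave 1751 to 2543 genes higher, the fewest without Sl OS replicate 2, and 2467 to 3385 lower, the fewest without Sl OS replicate 2 or W replicate 3. For the 38 genes named as leading or raised by wounding, 696 of 756 values over 20 settings, 4 of them chosen after seeing the data, kept the direction and the call, 60 were no longer called and none was reversed. Of these 60, 14 came from the batch of replicates 3 and 4. Of 1840 counts of list members over all settings, 209 moved by over 1.5 times. For the genes named in lists, 1892 of 2077 values kept the call and 185 did not, with none reversed, and the cause was not tested. All settings refit these libraries or a part of them, on genes named largely because they were called, which favours an unchanged direction. Genes at a few reads, such as the mitotic genes and the W levels of the leading increases, are limited by depth. The number of libraries limits all other comparisons.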

Other observations

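Markers of tissues that leaf discs should lack were near the limit of the table. Of 5 seed markers only SESA1 was in the table, called higher with Sl OS (1.58), and of 5 flower markers only AG, called lower (-1.66). The call of SESA1 was lost without W replicates 1, 2 or 3 or Sl OS replicates 3 or 4 (adjusted p 0.06 to 0.22) and that of AG without W replicates 1 or 3 or Sl OS replicates 1 or 2 (adjusted p 0.05 to 0.096). Of 3 root markers none was called.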
